A study of Mus musculus with 10 samples.

Results

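The 10 genes Grin1, Grin2a, Grin2b, Grin2c, Grin2d, Gria1, Gria2, Gria3, Gria4 and Grm4 encode subunits of the NMDA and AMPA glutamate receptors and a metabotropic glutamate receptor. They were taken by gene symbol from the 50559 genes counted in each library, and all 10 were among the 29952 genes with enough counts to be tested. The study asks what happens to granule cell precursors, the cells that give rise to cerebellar granule neurons, when they lose Smarca4 and overexpress Myc. Total RNA of 10 formalin-fixed, paraffin-embedded (FFPE) tissue punches was sequenced, with 1 library per sample. There were 4 tumors grown from such cells (MYC/SMARCA4 tumors), 3 medulloblastomas of a mouse model driven by Sonic hedgehog signaling (SHH MB) and 3 cerebella of postnatal day 7 (P7 cerebella).

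The MYC/SMARCA4 tumors grew in the cerebella of immunodeficient CD1nu/nu hosts. For tumors 1 to 4 the labels give ages of 112, 96, 89 and 79 days. Whether these are ages of the host or of the tumor is not known here. The cells put into these hosts were granule cell precursors of Math1-creERT2::Smarca4fl/fl pups, in which tamoxifen activates a Cre recombinase made in cells of the Math1 lineage. They carried murine Myc behind a CMV promoter from a lentivirus, and neither recombined nor transduced cells were sorted. The P7 cerebella came from Math1-creERT2::Smarca4fl/fl mice aged 7 days, each of them given tamoxifen (0.4 mg) when 3 days old, so that Cre was activated in the same lineage in this control. The labels do not give the part of its cells that lost Smarca4. SHH MB came from Math1-cre::Smofl/wt mice, also aged 7 days, with no treatment in the labels. A punch takes every cell of the tissue, host cells and whole cerebellum included. Age, genotype, tissue and transplantation differed together between the MYC/SMARCA4 tumors and each other group. SHH MB and P7 cerebella were of the same age and not transplanted, but differed in genotype, tissue and tamoxifen. The parts of these factors in any difference below cannot be told apart.

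NMDA receptors are cation channels that join the obligatory GluN1 subunit, made from Grin1, with GluN2 subunits made from Grin2a, Grin2b, Grin2c or Grin2d. Cerebellar granule cells carry Grin2b while they are young and turn on Grin2a and Grin2c as they mature, and channels with the GluN2C subunit are blocked less by magnesium. AMPA receptors, built from the products of Gria1 to Gria4, carry the fast glutamate current, and Grm4 encodes a G protein-coupled receptor that dampens glutamate release from granule cell axons.

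Total counts were 6547245, 6945005, 5663491 and 9352109 in tumors 1 to 4, 8958307, 8139778 and 5933515 in the P7 cerebella, and 5930961, 7933586 and 7031248 in SHH MB. Levels are given as CPM, counts divided by a library size scaled by edgeR's TMM factors. A floor of 3 counts corresponded to between 0.304 and 0.737 CPM. The 10 genes had between 49 counts, for Gria3 in tumor 3, and 4790 counts, for Grin2b in P7 cerebellum 2, so each was well above the floor in each library.

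Tumors 1 and 3 stood apart from the other tumors. Mitochondrial genes took 6.36% of the counts in tumor 1 and between 2.29% and 2.94% in tumors 2 to 4, against 1.25% to 1.59% in the 6 libraries of the other groups. Genes that resemble ribosomal RNA took 1.51% to 1.96% in the tumors, 0.353% to 0.412% in the P7 cerebella and 0.603% to 0.874% in SHH MB, so this measure of library quality differed between the groups as well. Mki67, a gene of dividing cells, was at 45.2 CPM in tumor 1 and between 707 and 932 CPM in tumors 2 to 4, and Atoh1, which defines granule cell precursors, had 2 counts in tumor 1, under the floor. The summed level of 8 marker genes of mature granule neurons was 5408, 2437, 375 and 1465.5 CPM in tumors 1 to 4, highest in tumor 1 and lowest in tumor 3. The receptor genes spread among the tumors as well. The highest tumor exceeded the lowest by between 1.71 times (Grin2d) and 37.7 times (Gria2), against 1.15 to 1.55 times among P7 cerebella and 1.03 to 1.55 times among SHH MB. Of the 10 genes, 8 had their highest tumor level in tumor 1, and 9 had their lowest in tumor 3. Calls of the 10 genes and of the other glutamate genes named below are therefore also given without tumor 1 or tumor 3, while marker genes are given with all 4 tumors. Fewer cells of a type and less RNA per cell cannot be told apart in such libraries.

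**Figure D1:**
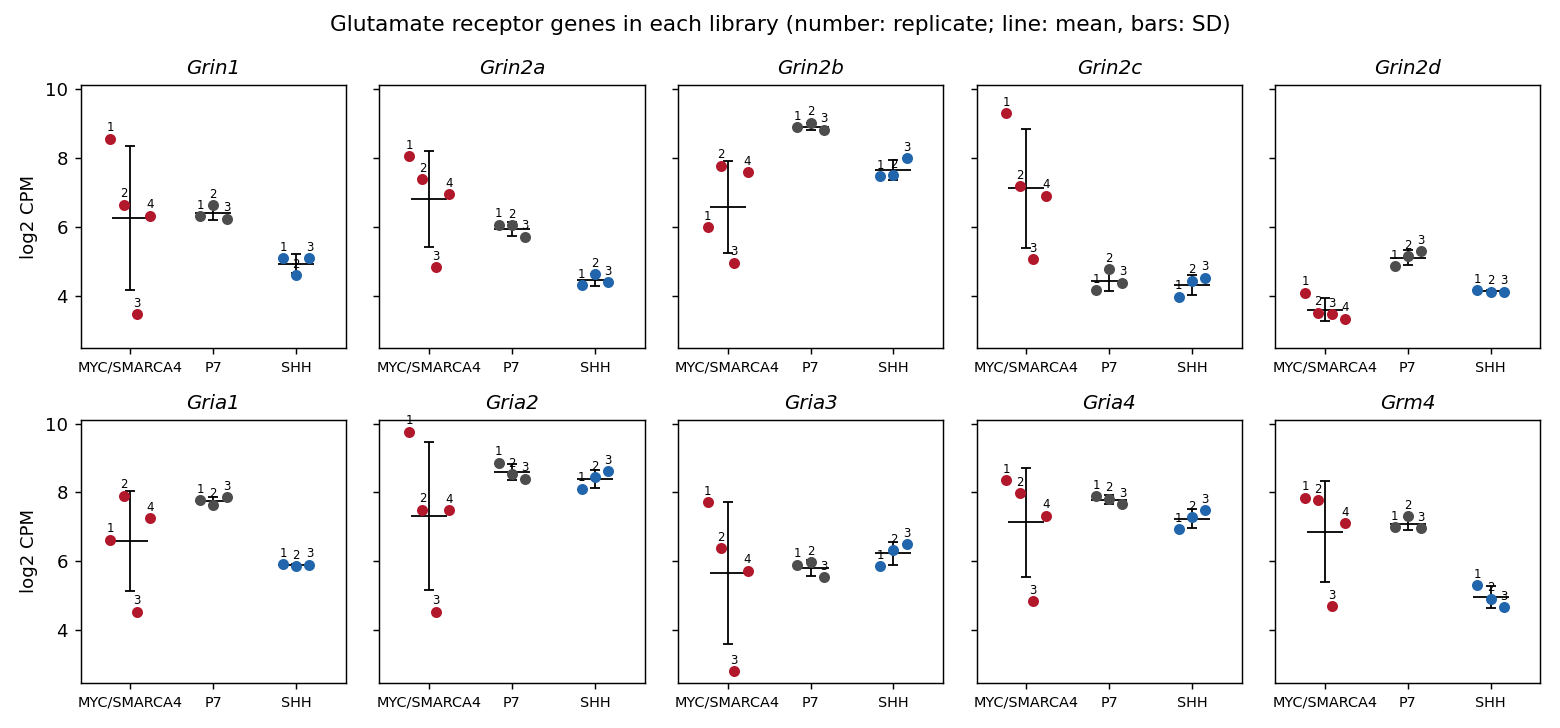
Level of each of the 10 receptor genes in every library, as log2 CPM on the vertical axis, by group on the horizontal axis (MYC/SMARCA4: the 4 tumors; P7: cerebella; SHH: SHH MB). Points are libraries numbered by replicate, the line is the group mean and the bars are its SD. Tumors 1 and 3 spread widely around the other tumors, and the Grin2b points of all 4 tumors lie below those of the P7 cerebella.

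Against the P7 cerebella, the tissue in which the transplanted cells arise, the tumors had more Grin2c and less Grin2b and Grin2d RNA. edgeR's quasi-likelihood test with Benjamini-Hochberg adjustment called 1 of the 10 genes higher and 2 lower at an adjusted p of at most 0.05. Of all genes tested, 3.99% were called higher and 2.27% lower. The median log2 fold change of the 10 genes was -0.02, beside -0.05 over all genes. Of the 10, 1 was higher in each tumor than in each P7 cerebellum and 2 were lower, as were 10.3% and 10.7% of all genes tested. DESeq2 and limma each called 1 higher and 2 lower as well, where they called 6.56% and 1.20% of all genes higher and 2.80% and 1.23% lower. Without tumor 1 the edgeR counts were 1 and 3, without tumor 3 they were 2 and 2, without tumor 4 or any 1 SHH MB 1 and 1, and without any 1 P7 cerebellum 0 and 1. Of all genes, 9.64% and 6.11% were called without tumor 1, 11.8% and 22.8% without tumor 3, 1.80% and 1.55% without tumor 4, at most 1.46% and 1.09% without any 1 SHH MB and at most 0.265% and 0.641% without any 1 P7 cerebellum. With only these 2 groups in the edgeR fit, 0 of the 10 were called higher and 1 lower, Grin2d, where 0.206% of genes were called higher and 0.607% lower, and 4 of the 10 had an unadjusted p under 0.05 in the edgeR fit of all libraries, as had 25.2% of all genes. The study's thresholds are a log2 fold change of at least 2.5 in size and an adjusted p of at most 0.01. With these, edgeR called 0 of the 10 and 0.29% of all genes, limma 0 of the 10 and DESeq2 1. No share of all genes is at hand for DESeq2 at these thresholds, so its count cannot be set beside one.

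Against SHH MB, a medulloblastoma of the same lineage, the tumors had more Grin2a, Grin2c and Grm4 RNA. The same test called 3 of the 10 genes higher, where 2.43% of all genes were called. It called 0 lower, where 2.26% of all genes were called, and DESeq2 and limma also called 0 lower. DESeq2 called 4 higher and limma 2 (4.21% and 0.692% of all genes), and 4 of the 10 had an unadjusted p under 0.05 in edgeR, as had 19.8% of all genes. Without tumor 1 edgeR called 3 higher and 1 lower, without tumor 3 it called 5 higher, without tumor 2 or 4 or any 1 P7 cerebellum 2, and without any 1 SHH MB 0. Of all genes, 5.001% were called higher and 4.75% lower without tumor 1, 9.57% higher without tumor 3, 1.29% without tumor 2, 2.10% without tumor 4, at most 1.17% without any 1 P7 cerebellum and at most 0.189% without any 1 SHH MB. The median log2 fold change of the 10 genes was 0.73, beside 0.01 over all genes. Of the 10, 2 were higher in each tumor than in each SHH MB and 1 was lower, as were 7.83% and 8.3% of all genes tested. With only these 2 groups in the edgeR fit, 0 of the 10 were called in either direction, where 0.337% of genes were called higher and 1.15% lower. At the study's thresholds edgeR called 0 of the 10 and 0.601% of all genes, limma 0 of the 10 and DESeq2 2. Here too no share of all genes is at hand for DESeq2, so its count cannot be set beside one. Both comparisons share the 4 tumors.

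SHH MB against P7 cerebella shows how the other model and the control differed. Here 7 genes, Grin1, Grin2a, Grin2b, Grin2d, Gria1, Gria4 and Grm4, were lower in each SHH MB than in each P7 cerebellum, as were 19.0% of all genes tested. In the edgeR fit of all libraries, 0 of the 10 were called in either direction, where 0.177% of all genes were called higher and 0.0467% lower, while 5 of the 10 had an unadjusted p under 0.05, as had 8.80% of all genes. DESeq2 called 1, Grm4, lower and limma 0 (0.269% and 0.0173% of all genes), and edgeR called 2 lower without tumor 1 and 3 lower without tumor 3 (1.19% and 0.874% of all genes). With only these 2 groups in the edgeR fit, the spread of the tumors no longer entered the test, and the same 7 genes were called lower and Gria3 higher. In that fit 13.4% of all genes were called higher and 10.3% lower. The median log2 fold change of the 10 genes was -1.12 in the fit of all libraries, beside -0.09 over all genes. At the study's thresholds edgeR, DESeq2 and limma each called 0 of the 10, and edgeR 0.01% of all genes.

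**Figure D2:**
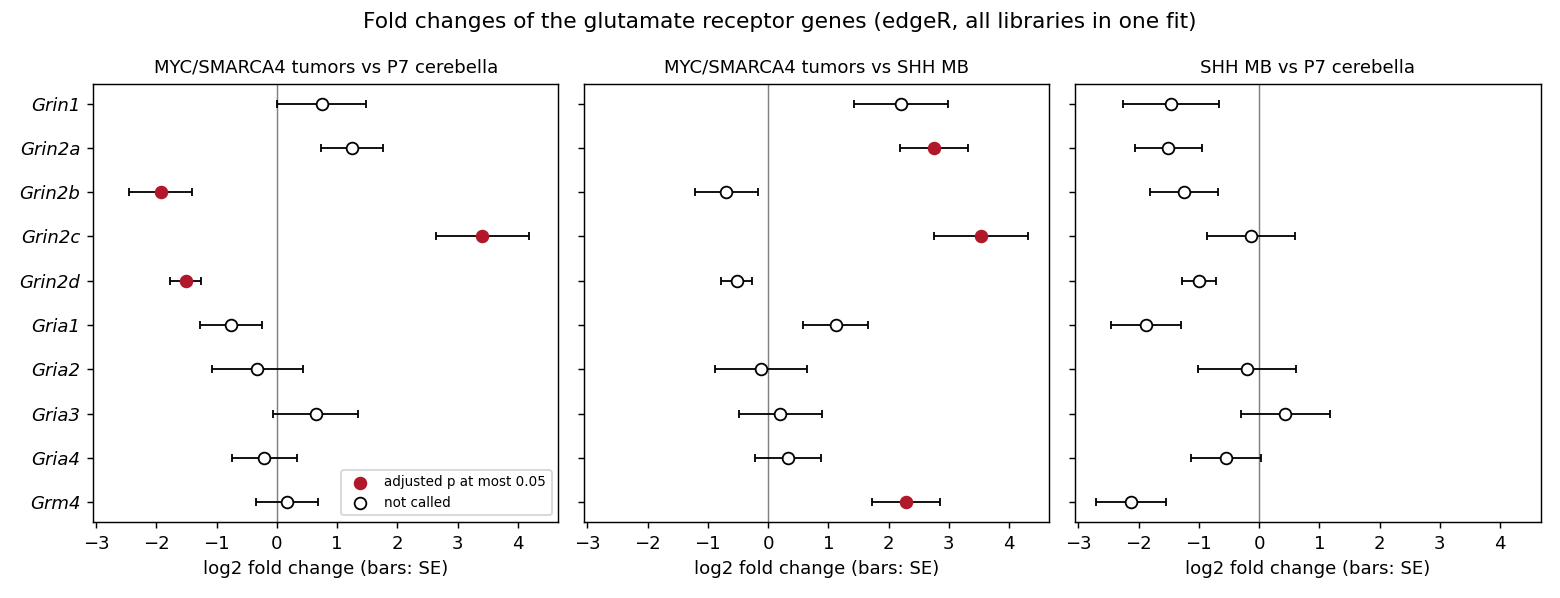
Log2 fold change of each receptor gene (horizontal axis) in the 3 comparisons, from the edgeR fit of all 10 libraries. Points are fitted values, and filled points have an adjusted p of at most 0.05. Bars are the SE, taken as the size of the fold change on the log2 scale divided by the square root of the test's F value. Grin2c lies farthest to the right against both other groups, at 3.41 and 3.54.

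Grin1, on chromosome 2 (25181186 to 25209226, minus strand, GRCm39), makes the subunit that each NMDA receptor needs. Its level was 375, 99.2, 10.8 and 79.5 CPM in tumors 1 to 4, 79.3, 97.6 and 74.98 CPM in the P7 cerebella and 33.8, 24.0 and 33.7 CPM in SHH MB. Tumors 2 and 4 lay near the P7 cerebella, tumor 1 far above and tumor 3 below every other library. The log2 fold change was 0.74 (SE 0.74, adjusted p 0.518) against P7 cerebella and 2.21 (SE 0.78, adjusted p 0.135) against SHH MB by edgeR's quasi-likelihood test with Benjamini-Hochberg adjustment. Without tumor 1 these were -0.53 and 0.91, and without tumor 3 the difference from SHH MB was called (adjusted p 0.00562). DESeq2 called it too, and over the 18 alternatives its adjusted p ran from 0.00562 to 0.388. Of the exons of Grin1, 11.8% overlap other annotated genes, above all the antisense RNA Grin1os, whose reads could be counted with it or apart from it.

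Grin2c, on chromosome 11 (115139992 to 115158525, minus strand), makes the GluN2C subunit of mature granule cells. Its level was 628, 145, 33.2 and 119 CPM in tumors 1 to 4, against 17.5, 27.2 and 20.5 CPM in the P7 cerebella and 15.4, 21.4 and 22.7 CPM in SHH MB. Each of the 4 tumors, tumor 3 included, lay above each of the 6 other libraries. All tumors lay above all P7 cerebella for 10.3% of all genes tested, and above all SHH MB for 7.83%. Grin2c rose by a log2 fold change of 3.41 (SE 0.77, adjusted p 0.0246, 10.6-fold) against P7 cerebella and 3.54 (SE 0.78, adjusted p 0.0232, 11.6-fold) against SHH MB by edgeR's quasi-likelihood test with Benjamini-Hochberg adjustment. Without tumor 1 the values were 2.08 (adjusted p 0.00504) and 2.18 (adjusted p 0.00528), and without tumor 3 they were 3.52 (adjusted p 0.00246) and 3.67 (adjusted p 0.00135). The call against P7 cerebella was lost with only the 2 groups in the fit (adjusted p 0.0941), with a replicate block (adjusted p 0.0999) and without P7 cerebellum 1, 2 or 3 (adjusted p 0.114, 0.115 and 0.132), out of a range of 2.98e-05 to 0.132 over 18 alternatives. The call against SHH MB was lost with only the 2 groups in the fit (adjusted p 0.0907), with a replicate block (adjusted p 0.0894) and without SHH MB 1, 2 or 3 (adjusted p 0.135, 0.117 and 0.121), out of a range of 1.3e-05 to 0.135. Grin2c stayed higher in each of these fits.

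Grin2a, on chromosome 16 (9385762 to 9813424, minus strand), makes GluN2A, the other subunit that granule cells add as they mature. It was at 264, 167, 28.04 and 124 CPM in tumors 1 to 4, at 66.3, 65.3 and 52.1 CPM in the P7 cerebella and at 19.4, 24.5 and 20.6 CPM in SHH MB. All 4 tumors were above SHH MB, as for 7.83% of all genes tested, with tumor 3 nearest. Against the P7 cerebella tumor 3 lay below and the other tumors above. Against SHH MB, Grin2a rose by 2.75 on the log2 scale (SE 0.56, adjusted p 0.0161) by edgeR's quasi-likelihood test with Benjamini-Hochberg adjustment, and by 2.16 without tumor 1 and 2.92 without tumor 3. This call was lost with only the 2 groups in the fit (adjusted p 0.0749), with a replicate block (adjusted p 0.0578) and without SHH MB 1, 2 or 3 (adjusted p 0.106, 0.0845 and 0.109), out of a range of 2.18e-05 to 0.109. Against P7 cerebella the log2 fold change was 1.25 (SE 0.52, adjusted p 0.159), and without tumor 3 it was 1.40 and called (adjusted p 0.00455, range 0.00455 to 0.433).

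Grin2b, on chromosome 6 (135690231 to 136150548, minus strand), makes GluN2B, the subunit of young neurons. It was at 62.9, 218, 30.8 and 191 CPM in tumors 1 to 4, at 469.9, 519 and 450.2 CPM in the P7 cerebella and at 176, 179 and 253 CPM in SHH MB. Each tumor lay below each P7 cerebellum, as for 10.7% of all genes tested, and tumors 2 and 4 lay within the range of SHH MB. Against P7 cerebella Grin2b fell by 1.93 on the log2 scale (SE 0.52, adjusted p 0.0477, 3.81-fold lower) by edgeR's quasi-likelihood test with Benjamini-Hochberg adjustment, close to the threshold. The value was -1.83 without tumor 1 and -1.72 without tumor 3, both called. It was not called with RLE factors (adjusted p 0.052), with only the 2 groups (0.132), with a replicate block (0.0709), without tumor 4 (0.0622), without P7 cerebellum 1, 2 or 3 (0.131, 0.167 and 0.155) or without SHH MB 1, 2 or 3 (0.0876, 0.0875 and 0.085), out of a range of 0.0109 to 0.167. Against SHH MB the log2 fold change was -0.69 (SE 0.52, adjusted p 0.499).

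Grin2d, on chromosome 7 (45481304 to 45527802, minus strand), makes GluN2D, a subunit found mostly early in development and in interneurons. It was at 16.7, 11.1, 10.7 and 9.80 CPM in tumors 1 to 4, at 28.7, 35.2 and 39.0 CPM in the P7 cerebella and at 17.6, 17.1 and 17.0 CPM in SHH MB. Its spread among the tumors, 1.71 times from lowest to highest, was the smallest of the 10 genes. Each tumor lay below each P7 cerebellum and each SHH MB, as for 10.7% and 8.3% of all genes tested. Tumor 1, at 16.7 CPM, lay only just below the lowest SHH MB, at 17.0 CPM. Against P7 cerebella it fell by 1.51 on the log2 scale (SE 0.26, adjusted p 0.00941) by edgeR's quasi-likelihood test with Benjamini-Hochberg adjustment, and by 1.79 without tumor 1 and 1.65 without tumor 3. Of 18 alternatives, which leave out the study's thresholds, 17 called it, and only the replicate block did not (adjusted p 0.0599, range 3.5e-05 to 0.0599). Against SHH MB the log2 fold change was -0.52 (SE 0.26, adjusted p 0.294), and without tumor 1 it was -0.82 and called (adjusted p 0.021, range 0.021 to 0.587). Of its exons, 8.18% overlap an RNA annotated on the opposite strand.

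The balance of Grin2c to Grin2b was taken in each library as the log2 ratio of their counts per kilobase of exons, so that it does not depend on the library size. It was 4.51 (95% interval 4.32 to 4.70), 0.60 (0.47 to 0.73), 1.30 (1.03 to 1.57) and 0.52 (0.40 to 0.63) in tumors 1 to 4, with exact binomial intervals. In the P7 cerebella it was -3.55 (-3.78 to -3.33), -3.06 (-3.25 to -2.88) and -3.26 (-3.51 to -3.02), and in SHH MB it was -2.32 (-2.63 to -2.03), -1.87 (-2.10 to -1.65) and -2.28 (-2.53 to -2.06). The groups did not overlap: each tumor lay above each SHH MB, and each SHH MB above each P7 cerebellum. Tumor 3, low for both genes, had the second highest balance, and tumor 1 stood far above the rest. Group means were 1.73 ± 1.88 in the tumors (SD, n = 4), -3.29 ± 0.25 in the P7 cerebella (SD, n = 3) and -2.16 ± 0.25 in SHH MB (SD, n = 3).

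The tumors exceeded the P7 cerebella by 5.02 on the log2 scale (32.5-fold) and SHH MB by 3.89 (14.8-fold). In exact permutation tests of either direction each gave p = 0.0286, the smallest that 35 assignments allow, and an adjusted p of 0.0429 over the 3 comparisons. Each tumor had more Grin2c and less Grin2b than each P7 cerebellum, so that p against P7 cerebella follows from the single genes. It is no separate support. Against SHH MB this holds for Grin2c alone, as Grin2b overlapped. Both genes were chosen with earlier results of these data known. SHH MB exceeded the P7 cerebella by 1.13 (2.19-fold) with an exact permutation p of 0.1, the smallest that 20 assignments of 3 against 3 allow, so this test could not pass the threshold. Without tumor 1 the tumors exceeded the P7 cerebella by 4.09 and SHH MB by 2.96, and without tumor 3 by 5.16 and 4.03. With any 1 tumor left out the design is 3 against 3, and the exact permutation p can be no smaller than 0.1. Whether Grin2c exceeded Grin2b outright depends on length: per kilobase of exons it did in all 4 tumors, while the ratio of raw counts was 9.98, 0.664, 1.08 and 0.626. Dividing by length moves each library alike, so the differences between groups stay as they are.

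**Figure D3:**
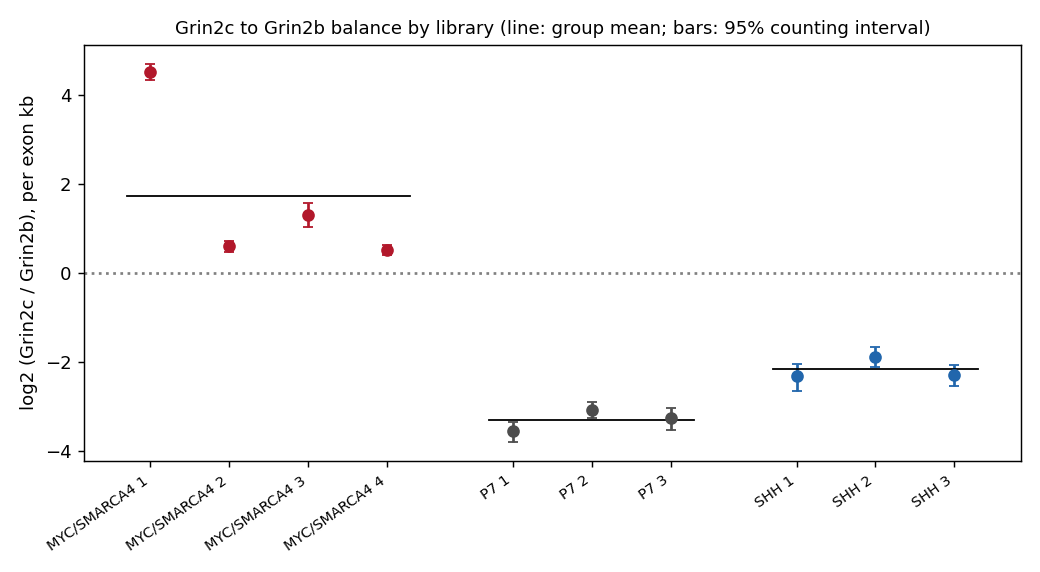
Log2 ratio of Grin2c to Grin2b per exon kilobase (vertical axis) in each library (horizontal axis). Points are libraries with 95% exact counting intervals, solid lines are group means and the dotted line marks equal levels. All 4 tumors lie above 0, between 0.52 and 4.51, and all 6 other libraries lie below it.

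The 4 GluN2 genes can also be read as shares of their summed level per exon kilobase. Grin2c made up 74.5% (95% exact interval 73.2 to 75.7), 40.3% (38.4 to 42.3), 41.9% (38.1 to 45.7) and 40.68% (38.9 to 42.5) in tumors 1 to 4. It made up 6.78% ± 1.07 in the P7 cerebella (SD, n = 3) and 13.5% ± 1.74 in SHH MB (SD, n = 3). Grin2b held 18.8% ± 11.5 in the tumors (SD, n = 4), 65.9% ± 1.44 in the P7 cerebella and 60.3% ± 4.39 in SHH MB, so the leading GluN2 gene was Grin2c in the 4 tumors and Grin2b in the 6 other libraries on this scale. Grin2a held 24.1% ± 4.16, 11.96% ± 1.46 and 9.25% ± 1.73 in the 3 groups, and its tumor share was above that of each other library. Grin2d held between 2.81% and 4.73% in tumors 1, 2 and 4 and 19.1% in tumor 3, against 15.3% ± 2.51 and 16.9% ± 2.55 in the P7 cerebella and SHH MB. Per kilobase of coding exons Grin2c held 40.6% of the tumors' sum and Grin2b 28.3%, against 4.16% and 79.3% in the P7 cerebella and 8.66% and 75.8% in SHH MB, so that the size of the shares, but not which group was higher, moved with the length used. On that scale Grin2b exceeded Grin2c in tumor 2 (38.5% against 29.7%) and tumor 4 (41.0% against 29.8%). The groups were not compared by a test on the shares.

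The summed GluN2 level per exon kilobase was 75.6, 32.3, 7.11 and 26.3 CPM in tumors 1 to 4, 27.4, 30.9 and 27.4 CPM in the P7 cerebella and 11.6, 12.5 and 15.3 CPM in SHH MB. Tumors 2 and 4 had sums near those of the P7 cerebella with another make-up, while tumor 1 had the highest sum and tumor 3 the lowest. Grin1 per exon kilobase amounted to 0.447, 0.277, 0.137 and 0.272 of that sum in tumors 1 to 4, and ran from 0.247 to 0.285 over the P7 cerebella and from 0.173 to 0.262 over SHH MB. Tumors 2 and 4 lay within the P7 range for this ratio per exon kilobase. Per kilobase of coding exons they lay above it, at 0.251 and 0.245 against 0.189 to 0.214.

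**Figure D4:**
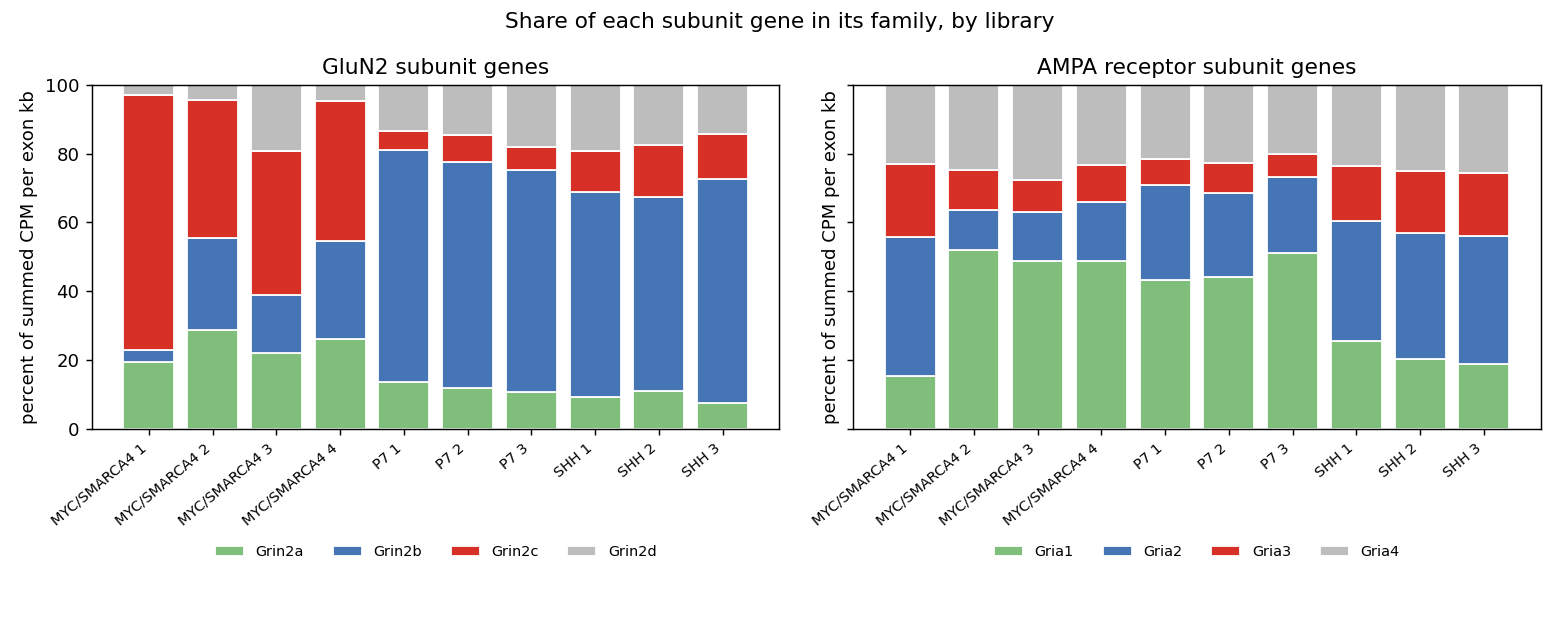
Share of each gene in the summed CPM per exon kilobase of its family (vertical axis, percent) in each library (horizontal axis), for the 4 GluN2 genes on the left and the 4 AMPA receptor genes on the right. Grin2c takes the widest band in the 4 tumors, between 40.3% and 74.5%, and Grin2b the widest in the other libraries. In the AMPA family, Gria1 takes 15.4% in tumor 1 and between 48.6% and 51.8% in the other tumors.

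Promoter sequences were held in the reference table for 5 of the 10 genes, Grin1, Grin2c, Grin2d, Gria2 and Gria4. Those of Grin2c and Grin2d are shown because these genes were called in opposite directions against P7 cerebella, and that of Grin1 because its product is in each NMDA receptor. Each runs 5′ to 3′ from 250 bases before to 50 bases after the start of the gene, from RefSeq on GRCm38.p6, all on the minus strand: Grin2c at chr11:115267194-115267493, Grin2d at chr7:45866632-45866931 and Grin1 at chr2:25319138-25319437. Capitals mark the E-box CACGTG, a motif that MYC family proteins can bind, which reads alike on both strands, and the GC box GGGCGG on either strand.
Grin2c: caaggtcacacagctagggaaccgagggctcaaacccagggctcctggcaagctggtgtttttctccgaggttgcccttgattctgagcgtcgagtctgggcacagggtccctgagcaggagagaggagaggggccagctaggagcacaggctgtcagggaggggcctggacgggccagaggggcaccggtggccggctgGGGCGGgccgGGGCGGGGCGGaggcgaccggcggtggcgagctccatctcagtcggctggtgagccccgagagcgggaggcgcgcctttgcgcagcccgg
Grin2d: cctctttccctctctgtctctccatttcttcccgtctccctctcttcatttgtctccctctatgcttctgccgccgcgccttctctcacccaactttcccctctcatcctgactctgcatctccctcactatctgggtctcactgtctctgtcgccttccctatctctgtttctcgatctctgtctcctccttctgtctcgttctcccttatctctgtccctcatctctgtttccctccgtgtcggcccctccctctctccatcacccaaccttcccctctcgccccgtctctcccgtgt
Grin1: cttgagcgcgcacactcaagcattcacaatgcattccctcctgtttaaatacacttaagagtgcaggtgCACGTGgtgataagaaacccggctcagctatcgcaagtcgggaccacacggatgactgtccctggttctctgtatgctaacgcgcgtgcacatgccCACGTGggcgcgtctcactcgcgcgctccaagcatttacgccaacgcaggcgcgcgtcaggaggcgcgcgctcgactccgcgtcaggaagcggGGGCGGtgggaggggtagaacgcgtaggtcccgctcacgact
The Grin2c promoter held 3 GC boxes and 0 E-boxes, that of Grin2d held neither, and that of Grin1 held 2 E-boxes and 1 GC box. The promoters of Gria2 and Gria4 held neither motif. Of 32851 promoters of the same 300 bases, 7.15% held an E-box and 35.7% a GC box, so either motif is a description of these windows and says nothing of binding.

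Among the AMPA receptor genes, Gria2 makes GluA2, the subunit that keeps calcium out of the channel. On chromosome 3 (80588757 to 80710538, minus strand), it was at 869, 181, 23.0 and 179 CPM in tumors 1 to 4, at 467, 368 and 339 CPM in the P7 cerebella and at 276, 350.1 and 391 CPM in SHH MB. Tumor 1 was above each other library and tumors 2, 3 and 4 were below each, so that the group overlapped both others through tumor 1. The log2 fold change was -0.32 against P7 cerebella (SE 0.75, adjusted p 0.793) and -0.12 against SHH MB (SE 0.76, adjusted p 0.95) by edgeR's quasi-likelihood test with Benjamini-Hochberg adjustment. Without tumor 1 the values were -1.73, which was called (adjusted p 0.0413, range 0.0413 to 0.94), and -1.56 (adjusted p 0.0865), and without tumor 3 they were -0.19 and 0.03.

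Gria1, on chromosome 11 (56902153 to 57221080, plus strand), makes GluA1, which is prominent in Bergmann glia and other cells of the cerebellum. It was at 99.0, 239.5, 23.0 and 153 CPM in tumors 1 to 4, at 218, 199.8 and 234 CPM in the P7 cerebella and at 59.9, 57.7 and 59.7 CPM in SHH MB. Tumor 2 was the highest here, tumor 1 was lower than tumors 2 and 4, and tumor 3 was lowest of all libraries. Its log2 fold changes of -0.76 against P7 cerebella (SE 0.52, adjusted p 0.356) and 1.12 against SHH MB (SE 0.54, adjusted p 0.268) did not pass edgeR's quasi-likelihood test with Benjamini-Hochberg adjustment. Without tumor 3 the latter was 1.37 and called (adjusted p 0.0148, range 0.0148 to 0.631).

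Gria3 on chromosome X (40489476 to 40767490, plus strand) and Gria4 on chromosome 9 (4417604 to 4796326, minus strand) make GluA3 and GluA4. Gria3 was at 209.6, 83.2, 6.80 and 52.9 CPM in tumors 1 to 4, between 46.5 and 62.5 CPM in the P7 cerebella and between 58.0 and 90.0 CPM in SHH MB. Gria4, the AMPA subunit typical of cerebellar granule cells and Bergmann glia, was at 327, 252, 28.7 and 160.3 CPM in tumors 1 to 4, between 202 and 238 CPM in the P7 cerebella and between 122 and 178 CPM in SHH MB. For both genes tumor 1 was highest and tumor 3 lowest of the 10 libraries, and the groups overlapped. Neither was called against P7 cerebella (log2 fold change 0.64 for Gria3 and -0.21 for Gria4) or against SHH MB (0.21 and 0.33). Without tumor 1 the values of Gria3 turned to -0.36 and -0.83, and that of Gria4 against SHH MB to -0.19, none of them called.

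As shares of the summed AMPA receptor level per exon kilobase, Gria1 held 15.4% (95% exact interval 14.1 to 16.8) in tumor 1 and 51.8%, 48.6% and 48.8% in tumors 2 to 4, against 46.2% ± 4.37 in the P7 cerebella (SD, n = 3) and 21.5% ± 3.46 in SHH MB (SD, n = 3). Gria2 held 40.4% (39.2 to 41.7) in tumor 1 and between 11.7% and 17.0% in tumors 2 to 4, against 24.7% ± 2.80 and 36.3% ± 1.04. So tumors 2 to 4 lay near one another and the P7 cerebella in the share of Gria1, and tumor 1 did not. Gria4 held 24.7% ± 2.07 in the tumors (SD, n = 4), 21.4% ± 1.27 in the P7 cerebella and 24.7% ± 1.07 in SHH MB. Per kilobase of coding exons Gria1 held 22.0%, 23.0% and 8.78% and Gria2 35.9%, 44.6% and 53.9% on average in the 3 groups, in the same order. On that scale Gria4 held 29.96% ± 6.29 in the tumors, 25.2% ± 1.09 in the P7 cerebella and 23.9% ± 0.52 in SHH MB, so that its spread and the order of the groups depend on the length used.

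Grm4, on chromosome 17 (27641361 to 27740377, minus strand), makes mGluR4, a receptor of the axon terminals of granule cells. It was at 230.2, 219.7, 25.96 and 139 CPM in tumors 1 to 4, at 127, 159 and 125 CPM in the P7 cerebella and at 39.2, 30.03 and 25.2 CPM in SHH MB. Tumors 1, 2 and 4 were above each SHH MB, and tumor 3 lay within their range. Against SHH MB, Grm4 rose by 2.29 on the log2 scale (SE 0.56, adjusted p 0.0367) by edgeR's quasi-likelihood test with Benjamini-Hochberg adjustment, and by 1.89 without tumor 1 and 2.49 without tumor 3. The call was lost in 11 of 18 alternatives: limma (adjusted p 0.125), only the 2 groups (0.127), a replicate block (0.106), without tumor 2 (0.0815) or 4 (0.0559), without P7 cerebellum 1, 2 or 3 (0.0642, 0.0632 and 0.0669) and without SHH MB 1, 2 or 3 (0.138, 0.171 and 0.202), out of a range of 0.000289 to 0.202. Against P7 cerebella the log2 fold change was 0.16 (SE 0.52, adjusted p 0.849).

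Grm4 also stood out in SHH MB against P7 cerebella, where its log2 fold change was -2.12 (SE 0.58). Its adjusted p was 0.249 in the edgeR fit of all libraries, 1.99e-11 with only the 2 groups, 0.0273 with DESeq2, 0.0418 without tumor 1 and 0.0048 without tumor 3, in a range from 1.99e-11 to 1. Gria1 followed with -1.88 (SE 0.57, adjusted p 0.346) by edgeR's quasi-likelihood test with Benjamini-Hochberg adjustment, then Grin2a with -1.51 (adjusted p 0.442), Grin1 with -1.46 (adjusted p 0.646), Grin2b with -1.24 (adjusted p 0.562) and Grin2d with -0.99 (adjusted p 0.277). With only the 2 groups in the fit these 5 genes had adjusted p from 4.53e-12 (Gria1) to 4.81e-05 (Grin2d). Grin2c was alike in both groups, with a log2 fold change of -0.13 (SE 0.73, adjusted p 0.981), and Gria2 lay at -0.21 (SE 0.81, adjusted p 0.973).

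By level per exon kilobase, the order in the P7 cerebella began with Gria1 (26.5 ± 2.08 CPM per kilobase, SD, n = 3), Grm4 (20.04 ± 2.81) and Grin2b (18.8 ± 1.38) and ended with Grin2a (3.41 ± 0.44) and Grin2c (1.95 ± 0.44). Grm4 and Grin2b overlapped, as did Gria2 with Gria4, Gria3 with Grin2d and Grin2d with Grin2a, and the other neighbours did not. In SHH MB it began with Gria2 (12.4 ± 2.13), Gria4 (8.44 ± 1.58) and Grin2b (7.97 ± 1.71) and again ended with Grin2c (1.78 ± 0.35) and Grin2a (1.20 ± 0.15). There Gria2 stood clear of Gria4, while Gria4, Grin2b, Gria1 and Gria3 each overlapped the next, as did Grin1 and Grin2d. In the tumors it began with Grm4 (22.5 ± 13.8, SD, n = 4), Grin2c (20.8 ± 24.1) and Gria1 (15.7 ± 11.1) and ended with Grin2b (4.94 ± 3.64) and Grin2d (1.53 ± 0.40), and all neighbours overlapped. Per kilobase of coding exons Gria2 came first in all 3 groups, so the order between genes depends on the length used.

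Across the 10 libraries the log2 levels of Grin2a and Grm4 ran most closely alike among pairs with different receptor families (Pearson r = 0.91, n = 10 libraries), and Gria2, Gria3 and Gria4 ran alike with r between 0.90 and 0.92. Grin2b and Grin2c had r = -0.44, and Grin2c and Grin2d r = -0.46, the lowest of all pairs. Among 13191 other genes with a mean log2 CPM of at least 3, those most like Grin2b were Kif3b (r = 0.990), Grm5 (r = 0.988) and Shisa7 (r = 0.979). Grm5 was at 9.09, 50.7, 4.03 and 41.0 CPM in tumors 1 to 4, between 104 and 121 CPM in the P7 cerebella and between 37.6 and 69.6 CPM in SHH MB. Those most like Grin2c were Slc2a1 (r = 0.989), Rprl3 (r = 0.988) and Kcnip4 (r = 0.988), and Kcnip4 was at 9219.5, 3391, 303 and 1737 CPM in tumors 1 to 4 and between 126 and 235 CPM in the other 6 libraries. Those most like Grm4 were Cep170b (r = 0.983), Insyn1 (r = 0.981) and Tppp (r = 0.973). The libraries fall into 3 groups and share the spread of tumors 1 and 3, so these values describe likeness and carry no test.

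The other genes of glutamate signaling, 59 in 5 lists, were all tested. Against P7 cerebella edgeR called 4 higher and 4 lower, where 3.99% and 2.27% of all genes were called, and 22 had an unadjusted p under 0.05, as had 25.2% of all genes. Of 14 auxiliary subunits of AMPA and kainate receptors, 2 fell (DESeq2 3, limma 2), with a list median log2 fold change of -0.88 beside -0.05 over all genes. Cacng4, which makes a protein that guides AMPA receptors to the membrane, was at 5.41, 22.1, 5.14 and 22.5 CPM in tumors 1 to 4 and at 109, 119 and 114 CPM in the P7 cerebella, and fell by 3.04 on the log2 scale (SE 0.47, adjusted p 0.00557). Cacng5, of the same family, fell by 1.73 (SE 0.44, adjusted p 0.0394). All tumors lay below all P7 cerebella for both genes, as for 10.7% of all genes tested. Without tumor 1 or 3, Cacng4 was at -2.89 and -2.87 and Cacng5 at -1.64 and -1.58, all called. All 18 alternatives called Cacng4 (adjusted p 7.55e-07 to 0.0353) and 10 called Cacng5 (adjusted p 0.00879 to 0.144). Cacng5 was lost with only the 2 groups and without tumor 2, any 1 P7 cerebellum or any 1 SHH MB.

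Of 9 transport and synthesis genes, 2 rose and 1 fell against P7 cerebella (DESeq2 2 and 1, limma 0 and 1), with a median of 0.15. The vesicular glutamate transporters went opposite ways. Slc17a6, the transporter of young neurons, was at 1.47, 35.3, 5.97 and 9.92 CPM in tumors 1 to 4 and at 75.1, 89.2 and 86.0 CPM in the P7 cerebella, and fell by 2.66 on the log2 scale (SE 0.66, adjusted p 0.0351). Slc17a7, the transporter of mature granule cells, was at 348, 306, 69.4 and 171 CPM against 62.5, 74.0 and 57.6 CPM, and rose by 1.79 (SE 0.45, adjusted p 0.0362), with tumor 3 inside the P7 range. Without tumor 1 or 3, Slc17a6 was at -2.41 and -2.48 and Slc17a7 at 1.38 and 1.91, all called. The call of Slc17a6 was lost in 9 of 18 alternatives (adjusted p 0.00331 to 0.152): only the 2 groups, the replicate block, and without tumor 4, any 1 P7 cerebellum or any 1 SHH MB. That of Slc17a7 was lost in 10 (adjusted p 0.00182 to 0.177): limma, only the 2 groups, the replicate block, and without tumor 2, any 1 P7 cerebellum or any 1 SHH MB. The directions held in all 18. These tests are edgeR's quasi-likelihood test with Benjamini-Hochberg adjustment.

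Of 20 scaffold and kinase genes, edgeR called 2 higher and 0 lower against P7 cerebella (4 at an unadjusted p under 0.05; DESeq2 3 higher and 0 lower, limma 0), with a median log2 fold change of 0.10. These were Dlg1, a scaffold of receptor clusters, which rose by 1.29 (SE 0.35), and Camk2a, a kinase of the postsynaptic density, which rose by 2.63 (SE 0.69). Camk2a was at 140.0, 379.8, 23.9 and 242 CPM in tumors 1 to 4, with tumor 3 below the 29.0 to 35.7 CPM of the P7 cerebella. Of 9 other ionotropic subunits 1 fell, Grik4, a kainate receptor subunit, by 1.05 (SE 0.29), with a median of -0.71, and of 7 other metabotropic receptors 0 were called by edgeR (3 at an unadjusted p under 0.05; DESeq2 and limma 1 lower each), with a median of -0.84. Without tumor 1 or 3, Dlg1 was at 0.92 and 1.34, Camk2a at 2.64 and 2.89 and Grik4 at -1.40 and -1.15, all called. Over 18 alternatives the call was lost in 12 for Dlg1 (adjusted p 0.00317 to 0.208), 11 for Camk2a (0.00102 to 0.209) and 14 for Grik4 (0.00088 to 0.2), among them limma, only the 2 groups, the replicate block and without tumor 2, tumor 4 or any 1 library of the other groups.

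Over all 5 lists, without tumor 1 the 59 genes gave 6 higher and 21 lower against P7 cerebella, without tumor 2 0 and 3, without tumor 3 9 and 17, and without tumor 4 1 and 3. Calls rose and fell over all genes too, at 9.64% higher and 6.11% lower without tumor 1, 1.77% and 1.60% without tumor 2, 11.8% and 22.8% without tumor 3 and 1.80% and 1.55% without tumor 4. Without any 1 of the P7 cerebella or SHH MB there were 0 higher and 1 lower (at most 1.46% and 1.09% of all genes). With a replicate block there were 0 and 3 (0.551% and 0.688%), with limma 0 and 4 (1.20% and 1.23%), with DESeq2 5 and 6 (6.56% and 2.80%), and with only the 2 groups in the fit 0 and 1 (0.206% and 0.607%).

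Against SHH MB edgeR called 3 of the 59 genes higher and 3 lower, where 2.43% and 2.26% of all genes were called, and 20 had an unadjusted p under 0.05, as had 19.8% of all genes. Gsg1l, a further AMPA receptor auxiliary subunit, was at 25.3, 46.4, 35.1 and 17.2 CPM in tumors 1 to 4, at 44.7, 47.7 and 53.9 CPM in the P7 cerebella and at 273, 270.1 and 305 CPM in SHH MB. SHH MB stood far above both other groups for this gene, by which the tumors were lower by a log2 fold change of -3.19 (SE 0.32, adjusted p 0.000184). It was also the 1 gene of the 59 called in SHH MB against P7 cerebella, higher by 2.54 (SE 0.35, adjusted p 0.0179), where edgeR called 0 lower, 11 had an unadjusted p under 0.05 (8.80% of all genes), DESeq2 called 1 higher and 1 lower and limma 1 higher and 0 lower. Cacng4 and Cacng5 were lower than in SHH MB by -2.82 (SE 0.47) and -2.13 (SE 0.45). Slc17a7 rose by 4.34 (SE 0.51, adjusted p 0.000575) and Camk2a by 3.56 (SE 0.73, adjusted p 0.0168) by edgeR's quasi-likelihood test with Benjamini-Hochberg adjustment. Over 18 alternatives the calls of Gsg1l, Cacng4 and Slc17a7 were kept in all 18, that of Cacng5 was lost in 4 (only the 2 groups and without any 1 SHH MB; adjusted p up to 0.103) and that of Camk2a in 5 (these and the replicate block; up to 0.111). Without tumor 1 or 3 all 5 genes were called, Gsg1l at -3.22 and -3.37, Cacng4 at -2.70 and -2.63, Cacng5 at -2.06 and -1.96, Slc17a7 at 3.904 and 4.48 and Camk2a at 3.53 and 3.84. In SHH MB against P7 cerebella the call of Gsg1l was lost without any 1 P7 cerebellum or SHH MB (adjusted p 0.0935 to 0.239).

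List medians of the tumors against SHH MB were -0.28 for the other ionotropic subunits, 0.22 for the metabotropic receptors, -0.76 for the auxiliary subunits, 0.87 for the scaffolds and kinases and 0.23 for transport and synthesis, beside 0.01 over all genes. Without tumor 3 the tumors had 18 of the 59 genes higher and 6 lower than SHH MB, without tumor 1 4 and 8, without tumor 2 2 and 4, without P7 cerebellum 2 or 3 2 and 3, and without any 1 SHH MB 1 and 2. Over all genes, 9.57% were then called higher and 13.9% lower without tumor 3, 5.001% and 4.75% without tumor 1, 1.29% and 1.80% without tumor 2, at most 1.17% and 1.67% without P7 cerebellum 2 or 3, and at most 0.189% and 0.969% without any 1 SHH MB. With DESeq2 there were 9 and 3 (4.21% and 2.19% of all genes), with limma 2 and 3 (0.692% and 1.205%), with a replicate block 1 and 3 (0.771% and 1.34%) and with only the 2 groups 1 and 2 (0.337% and 1.15%).

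In SHH MB against P7 cerebella the list medians were -0.43 for the other ionotropic subunits, -0.89 for the metabotropic receptors, -0.29 for the auxiliary subunits, -0.61 for the scaffolds and kinases and -0.29 for transport and synthesis, beside -0.09 over all genes. With only these 2 groups in the fit, 8 of the 59 genes were called higher and 31 lower in SHH MB, where 13.4% and 10.3% of all genes were called. Without any 1 P7 cerebellum or SHH MB, edgeR called 0 higher and 0 lower in the fit of the other libraries, while without tumor 1 or 3 it called 4 lower (1.19% and 0.874% of all genes) and without tumor 4 it called 1 lower (0.0638% of all genes).

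Marker genes of the cell types that a punch could hold, 64 genes in 11 lists, were read beside these results. None of them was at 0 in any library. The 8 markers of mature granule neurons summed to 5408, 2437, 375 and 1465.5 CPM in tumors 1 to 4, to between 1320.5 and 1638 CPM in the P7 cerebella and to between 797 and 868 CPM in SHH MB, with Rbfox3 the most abundant overall. Of the 8, 3 were called higher against P7 cerebella by edgeR (Slc17a7, Gabra6 and Cbln3) and 4 against SHH MB (these and Calb2), where DESeq2 called 4 and 6 and limma 0 and 3. Gabra6, a GABA receptor subunit specific to mature granule cells in the cerebellum, was at 384, 173, 15.4 and 77.4 CPM in tumors 1 to 4, between 9.62 and 18.1 CPM in the P7 cerebella and between 2.25 and 3.51 CPM in SHH MB. Like Grin2c it was highest in tumor 1 and lowest of the tumors in tumor 3. The other 5 markers were not called against P7 cerebella, with log2 fold changes of 2.66 for Etv1, 1.36 for Calb2, 0.016 for Fat2, -0.038 for Cbln1 and -0.79 for Rbfox3. Rbfox3 was at 616, 366, 113 and 197 CPM in tumors 1 to 4 and between 532 and 575 CPM in the P7 cerebella, so the list did not move as one.

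The 6 markers of immature granule neurons summed to 1005, 999, 536 and 507 CPM in tumors 1 to 4, to between 2229 and 2436 CPM in the P7 cerebella and to between 1684 and 1759 CPM in SHH MB, with Sema6a the most abundant. Of these, 4 fell against each other group (DESeq2 4 and 4, limma 4 and 3), and Dcx, a microtubule protein of migrating neurons, was at 14.5, 40.3, 9.02 and 67.0 CPM in the tumors and at 632, 533 and 584 CPM in the P7 cerebella. All tumors lay below both other groups for the sum of this list, as they did for Cacng4. They also did for Grin2d, though tumor 1 lay only just below SHH MB there. The single genes of the list did not all do so. Neurod1 was at 363, 452, 250 and 88.9 CPM in tumors 1 to 4. It was between 350 and 434 CPM in the P7 cerebella and between 157 and 173 CPM in SHH MB. Cntn2 was at 489 CPM in tumor 1 and between 179 and 280 CPM in SHH MB. The 6 markers of granule cell precursors, led by Mki67, summed to 142, 1345, 1586 and 1443.5 CPM in tumors 1 to 4, to between 802 and 1038 CPM in the P7 cerebella and to between 2684 and 3373 CPM in SHH MB. Against P7 cerebella 1 of these fell, and against SHH MB 2 (DESeq2 1 and 4, limma 1 and 3).

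**Figure D5:**
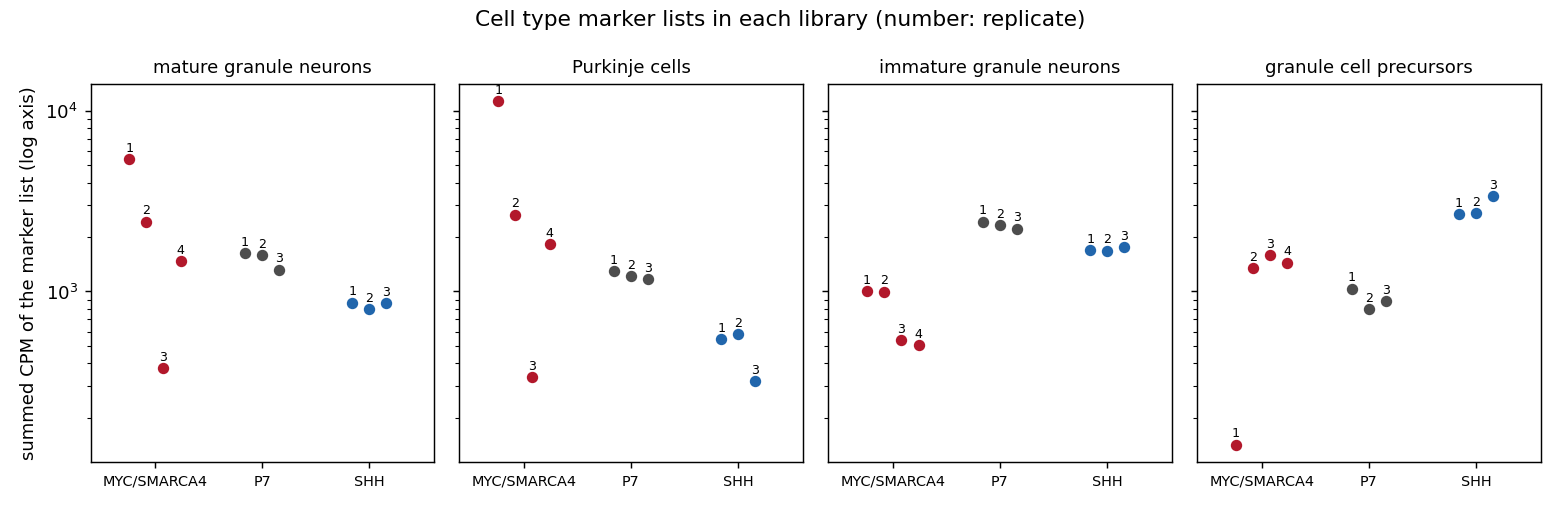
Summed CPM of 4 marker lists (vertical log axis) in each library by group, numbered by replicate. For mature granule neurons and Purkinje cells tumor 1 is highest, at 5408 and 11355 CPM, and tumor 3 is the lowest tumor. For immature granule neurons all 4 tumors lie below the other libraries, and for granule cell precursors tumor 1 is lowest, at 142 CPM.

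Purkinje cell markers, 7 genes led by Itpr1, summed to 11355, 2664, 337 and 1828 CPM in tumors 1 to 4. The sums were between 1167 and 1302 CPM in the P7 cerebella and between 318 and 578 CPM in SHH MB. Itpr1 alone was at 7032, 2039, 287 and 1416 CPM in tumors 1 to 4, and between 593 and 648 CPM in the P7 cerebella. In tumors 2 and 4, Car8 and Pcp2 lay below each P7 cerebellum, while Pvalb, Ppp1r17 and Gng13 lay above each. Against P7 cerebella edgeR called 0 of the 7 markers (4 at an unadjusted p under 0.05; DESeq2 3 higher, limma 0), and against SHH MB it called 4 higher (DESeq2 5, limma 0). Inhibitory interneuron markers, 5 genes led by Gad1, summed to 1223, 279, 49.7 and 244 CPM in the tumors, between 269.9 and 309 CPM in the P7 cerebella and between 68.5 and 137 CPM in SHH MB. edgeR called 0 against either group, with 0 and 3 at an unadjusted p under 0.05, while DESeq2 called 0 and 3 and limma 0. Myelinating oligodendrocyte markers, 6 genes led by Mbp, summed to 3874, 773, 103 and 412 CPM in the tumors, between 912 and 1089 CPM in the P7 cerebella and between 109.6 and 370.1 CPM in SHH MB. Here too edgeR called 0 against either group, with 0 and 4 at an unadjusted p under 0.05, while DESeq2 called 0 and 2 and limma 0. In each of these lists tumor 1 was highest and tumor 3 lowest of the tumors, as for 7 of the 10 receptor genes.

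Astrocyte and Bergmann glia markers, 7 genes led by Slc1a2, summed to 386, 2425, 489.8 and 1839 CPM in tumors 1 to 4, between 2057 and 2127 CPM in the P7 cerebella and between 1676 and 1962 CPM in SHH MB, with 3 lower against P7 cerebella (DESeq2 2, limma 3) and 1 higher and 1 lower against SHH MB (DESeq2 1 and 1, limma 0 and 1). Tumors 2 and 4 were high and tumors 1 and 3 low in this sum, the same split as for Gria1, Grin2b and Grm5. Slc1a2 made up much of it, at 117, 1544.5, 389 and 1329 CPM in tumors 1 to 4. It was between 532 and 570 CPM in the P7 cerebella. The median log2 fold change of the list against P7 cerebella was -1.41, beside -0.05 over all genes. Oligodendrocyte precursor markers, 5 genes led by Pdgfra, ranged from 64.9 to 189.5 CPM in the tumors, from 304 to 329.8 CPM in the P7 cerebella and from 398 to 441 CPM in SHH MB, with 3 lower against P7 cerebella and 4 against SHH MB (DESeq2 3 and 4, limma 2 and 3). Choroid plexus markers, 4 genes led by Ttr, ranged from 6.65 to 17.1 CPM in the tumors, from 531.5 to 1118 CPM in the P7 cerebella and from 238 to 1219.8 CPM in SHH MB, with 2 lower against each (DESeq2 3 and 2, limma 2 and 1). Ttr itself was between 0.178 and 3.05 CPM in the tumors. Microglia markers, 6 genes led by Csf1r, ranged from 34.1 to 157 CPM in the tumors and from 42.7 to 70.8 CPM in the other libraries, and endothelium markers, 4 genes led by Flt1, from 62.7 to 239 CPM and from 115 to 137 CPM. In both lists edgeR and limma called 0 against either group. For microglia 1 gene had an unadjusted p under 0.05 in each comparison and DESeq2 called 0 and 1, and for endothelium both counts were 0. In SHH MB against P7 cerebella edgeR called 2 granule cell precursor markers and 1 oligodendrocyte precursor marker higher (DESeq2 2 and 1, limma 1 and 1). Of the mature granule neuron markers edgeR and limma called 0 there and DESeq2 1 lower, with 4 at an unadjusted p under 0.05. In the other 8 lists all 3 tools called 0, with at most 3 genes of a list at an unadjusted p under 0.05. The part of these cell types in the results on the receptor genes was not tested.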

How the data were processed

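Total RNA of 10 FFPE tissue punches was measured, with 1 library for each of 4 MYC/SMARCA4 tumors, 3 P7 cerebella and 3 SHH MB. According to the submitters' processing notes, the authors checked reads with FastQC 0.73, trimmed them with Trimmomatic 0.38.1, aligned them with STAR 2.7.8a and counted them per gene with featureCounts 2.0.1. The deposited values are raw counts per gene. The authors also deposited values from a variance stabilizing transformation (VST) by DESeq2 2.11.40.7, which are on a log2 scale. The strand setting and the annotation used for counting are not stated, so reads from transcripts that overlap on opposite strands cannot be assigned.

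The 10 genes and the gene lists were chosen with earlier results of these data known. Counts were read in R 4.3.3, filtered with filterByExpr by group, which kept 29952 of 50559 genes, and scaled with TMM factors in edgeR 4.0.16. Levels are CPM on these scaled library sizes, and log2 CPM used a prior count of 2. A single quasi-likelihood fit held all 10 libraries with a mean per group, a common dispersion of 0.178 and 5.87 prior degrees of freedom. In it, 3 comparisons were tested with Benjamini-Hochberg adjustment over all genes tested at 0.05. The SE of a log2 fold change was its size divided by the square root of the F value of its test. The procedure was tested on simulated data in which all groups had the same spread. That test says nothing of calls made where the tumors spread more widely than the other groups. The balance of Grin2c to Grin2b was the log2 ratio of counts per exon kilobase with 0.5 counts added, compared by an exact permutation test with adjustment over 3 comparisons. Exon lengths and coding lengths came from GENCODE and are approximate, because the transcripts made in each tissue are not known. Lists were counted and their median given, with no test on a list.

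The genes named are the 10 receptor genes, genes of the 5 pathway lists called in a comparison (at most the 3 with the lowest p per list and comparison with values), and the most abundant gene of each marker list together with any at 0. To these come the 3 genes with the highest Pearson r to each of Grin2b, Grin2c and Grm4 among genes with a mean log2 CPM of at least 3. Atoh1, Gabra6, Cbln1, Cbln3, Calb2, Etv1, Fat2, Dcx, Neurod1 and Cntn2 were named after their values were seen. So were Car8, Pcp2, Pvalb, Ppp1r17 and Gng13. Alternatives were DESeq2 1.42.0, limma 3.58.1 on the VST values, RLE factors, no filter on low counts, only the 2 groups compared, the replicate number as a block, robust estimation, library sizes without mitochondrial genes and genes that resemble ribosomal RNA, the study's thresholds and each library left out in turn. Counts out of 18 alternatives leave out the study's thresholds. For the balance and the shares, 2 counts added, no division by length, VST differences and coding lengths were also tried.

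Total counts ranged from 5663491 to 9352109 per library. Intervals of ratios and shares in single libraries, and the floor of 3 counts, cover counting error only and not the spread between animals. No library was left out. The tumors differ from both other groups in age, genotype, host and tissue at once, while SHH MB and P7 cerebella share age but not genotype, tissue or treatment. Whole punches mix cell types, and RNA levels say nothing of receptor protein or current. No label assigns the libraries to batches.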

Additional observations from a re-analysis of the deposited data

Results flagged for a closer look

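In 3 of 19 groups of 4 tumor values tested, 1 tumor lay far from the others, where chance alone sets apart about 1 in 20 such groups. The tested value is the gap from the outermost tumor to its nearest neighbor divided by the range of the 4, set against Dixon's critical value at the 95% level. It was 0.955 for the share of Grin2c among the GluN2 genes, where tumor 1 was at 74.5% and the others between 40.3% and 41.9%. It was 0.912 for the share of Gria1 among the AMPA receptor genes, where tumor 1 was at 15.4% and the others between 48.6% and 51.8%. It was 0.882 for the share of Grin2d among the GluN2 genes, where tumor 3 was at 19.1% and the others between 2.81% and 4.73%. Shares of the same family are bound to one another, so the values for Grin2c and Grin2d are not independent. Groups of 3 libraries were too small to be tested in this way.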

How the results depend on the processing

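Over 18 alternatives and 3 comparisons, the 540 log2 fold changes of the 10 genes kept their direction in 521 cases and turned in 19, and 464 also kept their side of the threshold, while 37 calls were lost and 20 gained. The balance of Grin2c to Grin2b kept its direction in each alternative, at 5.01, 3.87 and 1.13 with 2 counts added, 5.02, 3.89 and 1.13 without division by length, and 4.91, 3.77 and 1.13 as a difference of VST values. Before any change it was 5.02, 3.89 and 1.13. With each library left out it ranged from 4.09 to 5.43 against P7 cerebella, from 2.96 to 4.29 against SHH MB and from 0.99 to 1.25 between SHH MB and P7 cerebella, the lowest tumor values being those without tumor 1. The adjusted p of the exact permutation test was then 0.0857 to 0.1. A comparison that lost a library has fewer assignments by construction. Where the tumors kept 4 against 3 libraries, the adjusted p of 0.0857 came from the adjustment over the 3 comparisons. Of 24 shares, 16 moved by more than 1 SD with coding lengths.

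With only the 2 groups compared, the members called against P7 cerebella were 0 higher and 1 lower (1 and 2 in the fit of all libraries), those against SHH MB 0 higher (3), and those in SHH MB against P7 cerebella 1 higher and 7 lower (0 and 0). The pathway genes called were 0 higher and 1 lower (4 and 4), 1 higher (3), and 8 higher and 31 lower (1 and 0). By construction these fits use fewer samples and, in the last comparison, leave out the tumors. The replicate block gave 0 higher and 0 lower members against P7 cerebella, 0 higher against SHH MB, and 0 and 1 pathway genes higher. Deviations from the group means correlated between -0.274 and 0.162 across libraries of the same replicate number, so the numbers do not pair samples.

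The study's thresholds are stricter by construction and left 0 members higher and 0 lower against P7 cerebella, 0 higher against SHH MB, 0 pathway genes higher and 1 lower against P7 cerebella, 1 higher against SHH MB and 0 higher in SHH MB against P7 cerebella. Limma called 0 pathway genes higher against P7 cerebella. DESeq2 called 9 pathway genes higher against SHH MB, and 1 member and 1 pathway gene lower in SHH MB against P7 cerebella. RLE factors left 1 member lower against P7 cerebella, and no filter on low counts gave 1 pathway gene lower in SHH MB against P7 cerebella. For limma, DESeq2, RLE factors, the filter and the block the cause was not tested.

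With each library left out, members called higher ranged from 0 to 2 and lower from 1 to 3 against P7 cerebella, higher from 0 to 5 and lower from 0 to 1 against SHH MB, and lower from 0 to 3 in SHH MB against P7 cerebella. Pathway genes ranged from 0 to 9 higher and 1 to 21 lower, from 1 to 18 and 2 to 8, and from 0 to 1 and 0 to 4. The high ends came from leaving out tumor 1 or 3, and most of the low ends from leaving out a control.

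Signs turned only for genes that were not called. Against P7 cerebella these were Grin1 (limma -0.060; -0.53 to 0.89 with a library left out), Gria3 (limma -0.048; -0.36 to 0.81) and Grm4 (limma -0.16, block -0.10; -0.21 to 0.35). Against SHH MB these were Gria2 (-1.56 to 0.076), Gria3 (limma -0.49, block -0.12; -0.83 to 0.39) and Gria4 (limma -0.073; -0.19 to 0.53), and between the controls Grin2c (-0.27 to 0.052). The cause was not tested.

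The median log2 fold change of all genes against P7 cerebella was -0.051, and -0.026 with RLE factors, which change the scaling alone. It was -0.26 with DESeq2, -0.23 with limma and -0.25 with no filter, which also change the genes or the model. Against SHH MB it was 0.0081, and -0.0038, -0.097, -0.15 and -0.11 with these. The values of Grin2b, Grin2c and Grin2d against P7 cerebella kept their direction under each of these. At the depths here each receptor gene had at least 49 counts in each library, so counting error bears on the shares of single libraries. Between groups the spread among the tumors was larger than counting error, with a chi-square per degree of freedom of 26.6 to 99.1 for pairs of tumors and 3.76 to 6.22 for pairs within the other groups.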
